A study of Danio rerio with 2 samples.

Results

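Transcripts of the proteasome and of the ubiquitin-conjugating (E2) enzymes were examined in RNA that was recovered with a Flag-tagged Cpeb1b protein from zebrafish embryos. Members were the rows of the deposited mean table whose gene name, in any letter case, began with psma to psmg followed by a number, or with ube2 followed by a letter. The rule found 85 of 33737 rows (80 distinct symbols). They comprised 22 core particle rows (psma, psmb), 21 regulatory particle rows (psmc, psmd), 6 activator rows (psme), 3 rows of assembly chaperones and an inhibitor (psmg, psmf) and 33 E2 enzyme rows. The name pattern also took in PSMC3IP, a factor of meiotic recombination, and PSME3IP1, which binds an activator; neither is a proteasome subunit, and both are counted in their name class below unless stated otherwise.

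The samples were 2 immunoprecipitates from wild type embryos that had received Flag-cpeb1b mRNA and were lysed at 16 h post-fertilization (hpf), in mid-somitogenesis; the series' design text calls them biological replicates. Cpeb1b is a cytoplasmic polyadenylation element-binding protein, and here it was overexpressed with a tag. Bead-bound RNA was fragmented and made into libraries with a small-RNA kit. The authors deposited RPKM values (read counts scaled to the length of the gene model and to the size of the library), already averaged over the replicates, so no SD or test between replicates can be given for any value, and n is not repeated. An input, a control antibody or uninjected embryos were not analysed here: every value is a level in the precipitate and not an enrichment. Of the fixed markers of muscle, notochord, epidermis, neural tissue, yolk layer, hatching gland and blood, 16 had a row. No row was named tnnt3b, ta, col2a1a or he1a. Of the 16 markers 15 reached RPKM 1, where 46.8% of all rows with a symbol did. The exception was the blood marker hbae3 at 0.540 RPKM, and the other blood marker, gata1a, had 1.12 RPKM. The smallest steps of the table fit 2 libraries of 6576775 and 6551358 reads, provided that the authors took a simple average, and RPKM 1 is then worth about 13.1 reads on each kilobase, summed over the libraries. The counting error of a 1 kb gene model is then 27.6% at RPKM 1 and 8.73% at RPKM 10; it covers counting only, and without molecular identifiers several reads can stem from 1 molecule.

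The proteasome degrades proteins that carry ubiquitin chains. Its core particle is a barrel of alpha and beta rings with the proteolytic sites inside, and its regulatory particle binds ubiquitin, unfolds the substrate with a ring of ATPases and removes the chain in the lid. E2 enzymes take activated ubiquitin, or a relative such as SUMO or NEDD8, from an E1 enzyme and pass it on with the help of an E3 ligase. In vertebrates some beta subunits have interferon-inducible alternatives, known from immune cells, or thymic alternatives.

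Most members were recovered at levels well above the typical gene. Of 85 members 76 (89.4%) had RPKM 1 or more, where 46.8% of all rows with a symbol and 38.6% of all rows did. RPKM 10 was reached by 38 members (44.7%), where 7.79% of rows with a symbol and 6.82% of all rows did. The median over all 85 members was 8.65 RPKM, against 0.854 RPKM over the 21939 rows with a symbol and 0.507 RPKM over all rows. Of the members, 43 lay above 90% of the rows with a symbol. In whole embryos, fewer cells that express a gene and less of its RNA per cell cannot be told apart. Together the members held 0.107% of the summed RPKM of the table, which is dominated by a few very high rows.

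The 3 largest classes differed in their low ends more than in their high ends. The core particle had a median of 8.31 RPKM and ran between 0.0514 and 48.4 RPKM, with 15 of 22 rows at RPKM 1 or more. The regulatory particle had a median of 13.1 RPKM and a range of 2.31 to 51.8 RPKM, and the E2 enzymes a median of 6.72 RPKM and a range of 1.03 to 41.5 RPKM. All 21 regulatory particle rows and all 33 E2 rows reached RPKM 1, where 46.8% of all rows with a symbol did. The lowest E2 row, at 1.03 RPKM, lay within the counting error of that threshold for a 1 kb model. The next E2 rows, UBE2Z at 1.28 RPKM and UBE2G2 at 1.35 RPKM, were also near RPKM 1. They had an estimated 16.8 and 17.7 reads per kilobase. The ratio of the core particle median to the regulatory particle median was 0.634, and it was 1.02 when the 6 inducible or alternative beta subunits were left out, a setting chosen after the values were seen. The core particle without those 6 rows had a median of 13.3 RPKM. The ratio of the core particle median to the E2 median was 1.24, and that of the regulatory particle median to the E2 median was 1.95. The core particle to E2 ratio turned below 1 when class means on a log scale replaced medians (0.851 with a pseudocount of 1). Genes of a class are not replicates of a condition, so these ratios are descriptions without a test.

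**Figure D1:**
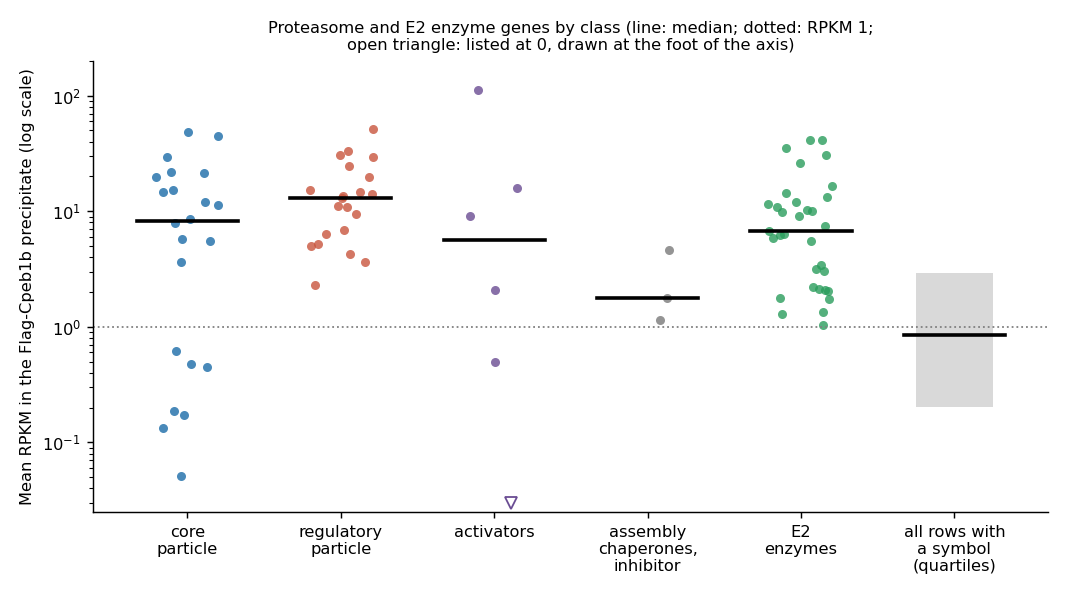
Mean RPKM of each member (log axis) by class, 1 point per row of the table, with the class median as a line and the quartiles of all rows with a symbol as a grey box. The medians of the core particle, regulatory particle and E2 enzymes were 8.31, 13.1 and 6.72 RPKM, and the core particle has a separate group of 7 rows under RPKM 1.

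The alpha ring, the outer ring that gates entry to the core, was led by PSMA4 (ENSDARG00000045928) at 48.4 RPKM and PSMA8 (ENSDARG00000010965) at 44.6 RPKM. The RefSeq gene table (assembly GRCz12tu) gives psma7 as a synonym of zebrafish psma8, and no row was named psma7. Below this pair the levels dropped to 14.6 RPKM for PSMA3, 11.2 RPKM for PSMA2 and 7.96 RPKM for PSMA5. The 2 rows named PSMA6 had 5.72 RPKM (ENSDARG00000013966) and 3.65 RPKM (ENSDARG00000019398), psma2a had 5.49 RPKM, and psma6l had 0.478 RPKM. The PSMA4 value was thus 8.45 times the higher PSMA6 value (counting interval 6.66 to 10.7 for 1 kb models). Added up over its 3 rows, psma6 had 9.85 RPKM, and the lowest subunit of the ring was then psma5 at 7.96 RPKM. The gene psma1 was not analysed here, as no row carried that name.

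All 7 beta subunits of the standard particle had a row, and they lay closer together than the alpha subunits. Among the structural subunits, which line the inner rings without a proteolytic site, PSMB1 had 29.8 RPKM, PSMB3 had 21.9 RPKM, PSMB4 had 21.3 RPKM and PSMB2 had 15.2 RPKM. The catalytic subunits were PSMB5, with the chymotrypsin-like site, at 19.9 RPKM, PSMB7, with the trypsin-like site, at 12.1 RPKM, and PSMB6, with the caspase-like site, at 8.65 RPKM. The highest of the 7, PSMB1, exceeded the lowest, PSMB6, by 3.44 times (counting interval 2.79 to 4.24 for 1 kb models). PSMB3 and PSMB4 differed by less than the counting error of a 1 kb model.

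None of the 6 inducible or alternative beta subunits reached RPKM 1, where 46.8% of all rows with a symbol did. Their values lay above 13.3% (psmb13a) to 43.7% (PSMB10) of the rows with a symbol. PSMB10, the counterpart of PSMB7 in the mammalian immunoproteasome, had 0.613 RPKM, PSMB8, the counterpart of PSMB5, had 0.188 RPKM, and PSMB9, the counterpart of PSMB6, had 0.132 RPKM. The standard subunit exceeded its counterpart by 19.7 times for PSMB7 over PSMB10 (counting interval 9.72 to 40.04 for 1 kb models), by 106 times for PSMB5 over PSMB8 (30.2 to 369.7) and by 65.6 times for PSMB6 over PSMB9 (14.6 to 294.2). The thymic form psmb11b had 0.446 RPKM, and the fish genes psmb12 and psmb13a had 0.174 and 0.0514 RPKM. Depth is thin here: the estimate for PSMB10 was 8.05 reads per kilobase, that for PSMB8 was 2.47 and that for psmb13a was 0.674. In the GRCz12tu annotation the models of psmb8a and psmb13a overlap each other and those of psmb9a and psmb12. The model of psmb13a also overlaps tap2a, and that of psmb10 overlaps LOC100538032. Whole gene spans were compared, without strand. Where the counted models overlap too, some reads may not be assignable to 1 of these genes, which was not tested.

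**Figure D2:**
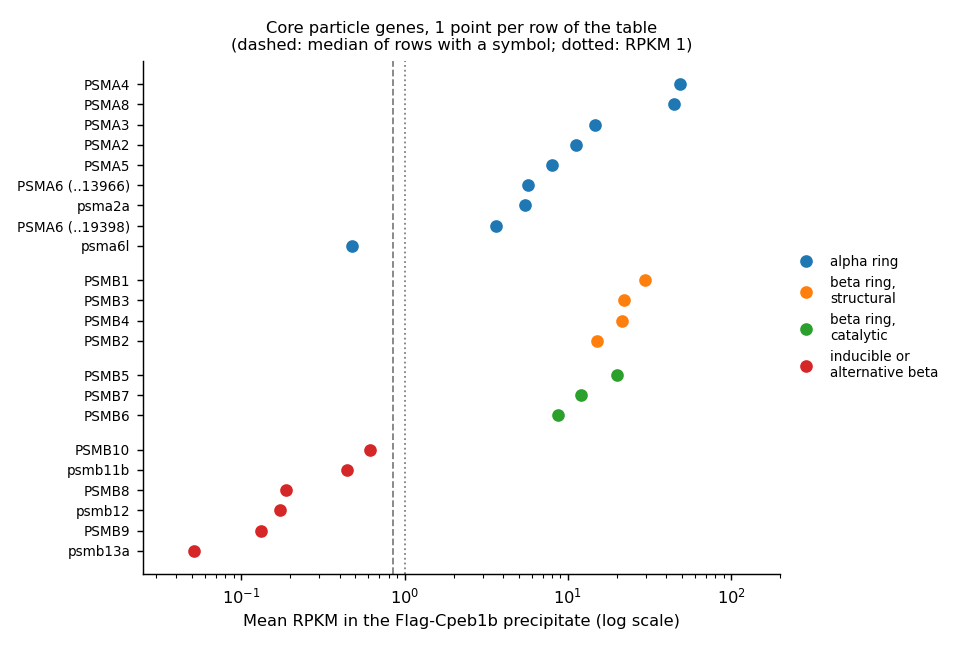
Mean RPKM (log axis) of the core particle rows, grouped into alpha ring, structural beta, catalytic beta and inducible or alternative beta subunits. Apart from psma6l at 0.478 RPKM, the alpha and standard beta subunits lie at 3.65 RPKM or more, and the 6 inducible or alternative subunits at 0.613 RPKM or less.

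The ATPase ring of the regulatory particle, which unfolds substrates, covered a wide range. PSMC6 had 30.9 RPKM and PSMC2 had 29.4 RPKM, while PSMC5 had 6.85 RPKM, PSMC3 had 6.41 RPKM and PSMC4 had 5.16 RPKM. The remaining ATPase, psmc1, had the rows psmc1b at 14.1 RPKM and PSMC1 at 9.53 RPKM, 23.6 RPKM in sum. PSMC6 exceeded PSMC4 by 5.99 times (counting interval 4.63 to 7.75 for 1 kb models). Of the non-ATPase subunits of the base, the scaffold PSMD1 had 24.5 RPKM and the ubiquitin receptor psmd4b had 14.5 RPKM. ADRM1, another ubiquitin receptor of the base whose name falls outside the rule, had 12.1 RPKM.

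Lid subunits also covered a wide range. PSMD3 led with 33.5 RPKM, followed by PSMD12 at 19.8 RPKM, PSMD6 at 15.1 RPKM, PSMD13 at 13.4 RPKM and PSMD8 at 11.0 RPKM. PSMD14, the deubiquitinase that cuts the chain from the substrate, stood lower at 4.97 RPKM, and the 2 rows named PSMD11 had 4.24 and 3.61 RPKM. PSMD3 exceeded PSMD14 by 6.75 times (counting interval 5.20 to 8.75 for 1 kb models). SEM1, a small lid subunit outside the name rule, had 14.0 RPKM. The genes psmd2 and psmd7 were not analysed here, as no row carried those names.

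The highest psmd value belonged to a factor that is not part of the finished particle. PSMD5 (ENSDARG00000059046), which in mammals and yeast helps to assemble the ATPase ring and is released afterwards, had 51.8 RPKM. This value was above every measured subunit of either particle, but PSMA4 came close at 48.4 RPKM, and no counting interval was computed for the pair. The other assembly chaperones of the same ring, PSMD9 and PSMD10, had 13.1 and 2.31 RPKM, so that PSMD5 exceeded PSMD10 by 22.4 times (counting interval 15.6 to 32.3 for 1 kb models). Of the chaperones of the core particle, PSMG1 had 4.58 RPKM and its partner PSMG2 had 1.13 RPKM, while POMP, the maturation factor of the beta ring, had 8.62 RPKM. PSMF1, an inhibitor of the core particle, had 1.78 RPKM. PSMC3IP had 10.9 RPKM.

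Activators, the caps that can open the core without ubiquitin, held both the highest and the lowest member. PSME1 (ENSDARG00000002165) had 111 RPKM, rank 247 of all 33737 rows, and an estimated 1462 reads per kilobase. PSME2, with which PSME1 forms a mixed ring in mammals, had 0.491 RPKM, or about 6.45 reads per kilobase, so the pair differed by 227 times (counting interval 105 to 491 for 1 kb models). PSME3, the nuclear activator, had 16.0 RPKM. A row named PSME4, a large nuclear activator, had 2.09 RPKM (ENSDARG00000018742) and another was listed at 0 (ENSDARG00000087911). PSME3IP1, the binding partner of PSME3, had 9.16 RPKM. PSME1 by itself made up most of the activators' 139 RPKM. In the GRCz12tu annotation no other gene overlaps psme1, while lsm5 overlaps psme2.

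**Figure D3:**
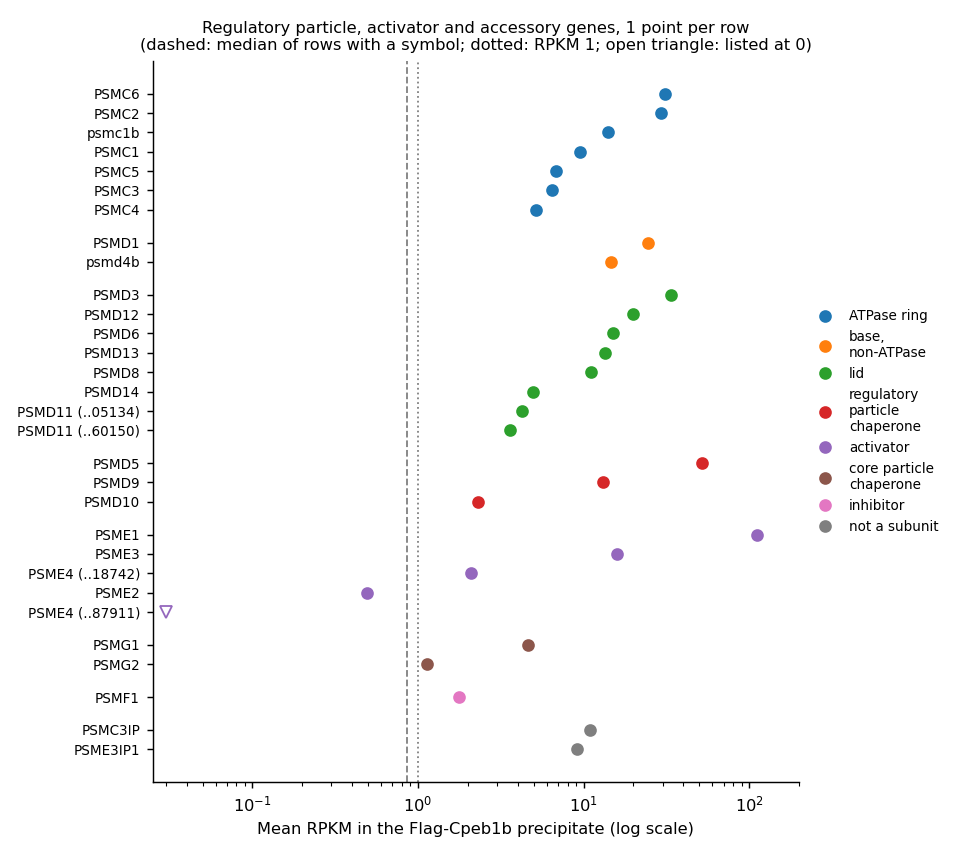
Mean RPKM (log axis) of the regulatory particle, its assembly chaperones, the activators, the core particle chaperones, the inhibitor and the name matches that are not subunits. PSME1 at 111 RPKM and PSMD5 at 51.8 RPKM stand at the right, and a PSME4 row listed at 0 is drawn as an open triangle at the left edge.

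Subunits of the proteasome are present in fixed proportion in the particle, and the levels of their transcripts in the precipitate can be set beside this. After the rows of a subunit were added up, the 13 core subunits measured had a median of 16.7 RPKM and a range of 7.96 RPKM (psma5) to 48.4 RPKM (psma4), a span of 6.08 times. The SD of these sums was 0.826 on the log2 scale for the core particle, 0.600 for the beta ring alone, 1.09 for the alpha ring and 1.21 for the ATPase ring. Over the 28 core and regulatory particle subunits that had a row under the name rule, the sums had a median of 15.1 RPKM. They ran between 4.97 RPKM for psmd14 and 48.4 RPKM for psma4. ADRM1 and SEM1 are not among the 28. The beta ring was thus more even than the alpha and ATPase rings, by SD and also by span, which was 3.44 times for the beta ring, 6.08 times for the alpha ring and 5.99 times for the ATPase ring; this describes 7, 6 and 6 subunits.

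E2 enzymes had the largest share of the members' summed RPKM, 32.4%, but also the most rows, 33 of 85. The regulatory particle held 29.5% with 21 rows, the core particle 24.8% with 22 rows and the activators 12.6% with 6 rows. The E2 mean per row, 10.8 RPKM, was below that of the regulatory particle (15.5 RPKM), core particle (12.4 RPKM) and activators (23.2 RPKM). It was above that of the assembly chaperones and inhibitor (2.50 RPKM). By median the activators were below the E2 enzymes, 5.63 RPKM against 6.72 RPKM. Their mean rests largely on 1 row, PSME1 at 111 RPKM. The highest 2 E2 rows were UBE2V2 at 41.5 RPKM and ube2na at 40.9 RPKM. Products of these genes act together: UBE2V proteins lack the catalytic cysteine and direct UBE2N to build chains that serve signalling and DNA damage tolerance and are not the usual degradation signal. Their relatives ube2nb and ube2v1 had 16.7 and 10.8 RPKM. All 4 rows of the UBE2N and UBE2V group were therefore above RPKM 10, with a median of 28.8 RPKM. RPKM 10 was reached by 13 of the 33 E2 rows (39.4%) and by 7.79% of all rows with a symbol.

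The UBE2D enzymes, which work with many E3 ligases, ran between 3.05 and 35.2 RPKM. Within the family ube2d2 had 35.2 RPKM, ube2d1b had 11.6 RPKM, UBE2D3 had 5.56 RPKM, ube2d4 had 3.15 RPKM and UBE2D1 had 3.05 RPKM. The ube2d2 value was 11.5 times that of UBE2D1 (counting interval 8.35 to 15.9 for 1 kb models), and ube2d4 and UBE2D1 differed by less than the counting error of a 1 kb model. Of the related UBE2E enzymes, UBE2E3 had 14.5 RPKM and ube2e2 had 9.89 RPKM.

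Of the E2 enzymes that serve ubiquitin relatives, UBE2F, which conjugates NEDD8, had 5.89 RPKM. The gene ube2m, listed in the same group, was not analysed here, as no row carried that name. UBE2Z, which takes ubiquitin or the ubiquitin-like FAT10 from the E1 enzyme UBA6, had 1.28 RPKM.

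Of the E2 enzymes known for building degradation chains, UBE2G1 had 12.1 RPKM, ube2g1b had 6.72 RPKM, and the 2 rows named UBE2K had 10.3 and 1.73 RPKM. UBE2G2, which acts in the degradation of proteins of the endoplasmic reticulum, had 1.35 RPKM, and ube2r2, an enzyme of the cullin ligases, had 2.20 RPKM. The membrane-bound UBE2J2 and UBE2J1 of the same reticulum pathway had 3.41 and 1.77 RPKM, so the 3 enzymes of that pathway lay in the lower part of the class. UBE2S, which extends chains on substrates of the anaphase-promoting complex (APC/C), had 6.29 RPKM; its partner ube2c was not analysed here, as no row carried that name.

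Other E2 rows lay between 1.03 and 26.0 RPKM. UBE2Q2 had 26.0 RPKM and its relative UBE2QL1 had 2.04 RPKM. UBE2H had 13.3 RPKM, ube2l3b, a partner of RING-between-RING ligases, had 10.1 RPKM, and UBE2T, the enzyme of the Fanconi anaemia pathway, had 6.38 RPKM. The RAD6-type enzymes of DNA damage tolerance were represented by ube2al at 7.45 RPKM and UBE2B at 2.06 RPKM. The lowest of all E2 rows was 1 of the 2 named UBE2W, an enzyme that modifies the amino terminus of its substrates; these had 2.14 and 1.03 RPKM.

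**Figure D4:**
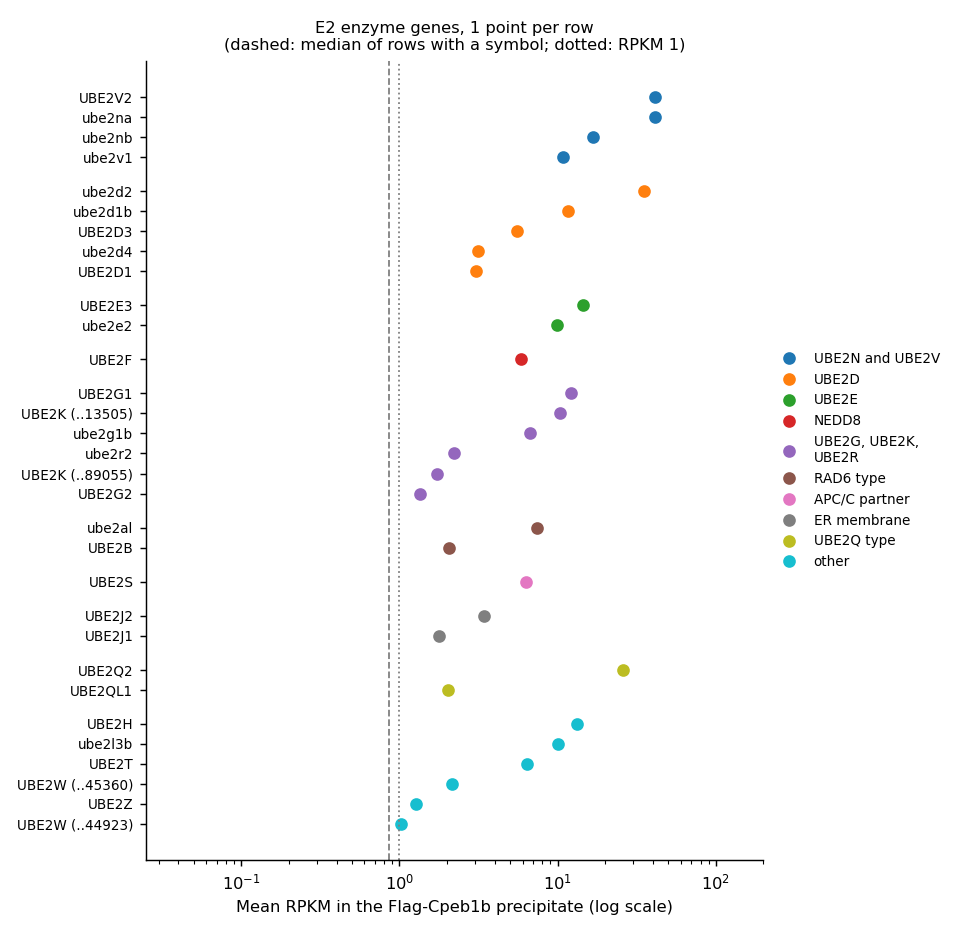
Mean RPKM (log axis) of 31 of the 33 E2 rows, grouped by type; the other 2 are not shown. Of the rows shown, UBE2V2, ube2na, ube2d2 and UBE2Q2 lie at 26.0 RPKM or more, and all 31 lie to the right of the line at RPKM 1.

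Several members stand on more than 1 row, and in most of these cases the rows differed by more than the counting error of 1 kb models. Of 10 name stems examined that have several rows, 9 had a value above 0 in the highest and the next row, and the higher exceeded the next by 1.18 to 5.96 times with a median of 2.04 times. In 5 of the 9 the ratio was 2 or more, and in 8 the counting interval for 1 kb models lay above 1, with PSMD11 as the exception. The higher row was always divided by the next, so no ratio could fall below 1. These intervals leave out the spread between replicates. The widest gap was that of UBE2K, 10.3 RPKM (ENSDARG00000013505) against 1.73 RPKM (ENSDARG00000089055). It was followed by ube2d1b over UBE2D1 at 3.81 times and ube2na over ube2nb at 2.46 times. The rows in capitals of these stems were not assigned to an a or b paralogue, except that PSMC1 was matched to psmc1a when overlaps were looked up. How reads that match both copies were counted is not given in the sources used here, so a split between close copies is uncertain.

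Other genes of the ubiquitin pathway, listed by function and outside the name rule, were recovered as well. The 47 rows examined had a median of 6.17 RPKM, against 0.854 RPKM over all rows with a symbol. Of the 47 rows 43 (91.5%) reached RPKM 1, where 46.8% of all rows with a symbol did. Of the genes that encode ubiquitin itself, rps27a, which encodes it fused to a ribosomal protein, had 211 RPKM, while the rows UBB and ubb, of polyubiquitin, had 6.54 and 3.93 RPKM. Of 7 E1 rows 6 reached RPKM 1, with a median of 5.76 RPKM. Among them uba1, the main ubiquitin E1, had 15.1 RPKM, SAE1, of the SUMO E1, had 13.0 RPKM, and uba7, the interferon-linked E1 of ISG15 in mammals, had 0.436 RPKM.

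Shuttle factors, VCP and its cofactors, the proteasome-bound deubiquitinase USP14 and the transcription factor NFE2L1 formed a list of 10 rows. Of these 9 had RPKM 1 or more, where 46.8% of all rows with a symbol did, and the median was 5.59 RPKM. The shuttle RAD23B had 51.1 RPKM, close to the highest proteasome subunits, the unfoldase VCP had 26.3 RPKM and the shuttle UBQLN4 had 25.9 RPKM. Rows of NFE2L1, which raises proteasome genes in mammalian cells when the proteasome is inhibited, had 3.07 RPKM (nfe2l1b) and 0.298 RPKM (NFE2L1). Cullin ligase genes had 13 of 14 rows at RPKM 1 or more and a median of 7.32 RPKM, led by the adaptor SKP1 at 24.6 RPKM and the RING subunit RBX1 at 21.3 RPKM. APC/C genes had 12 of 13 rows at RPKM 1 or more and a lower median of 3.24 RPKM, led by the activator FZR1 at 18.6 RPKM. CDC34, an E2 enzyme without a ube2 name, had 16.5 RPKM (cdc34b) and 2.50 RPKM (cdc34a).

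**Figure D5:**
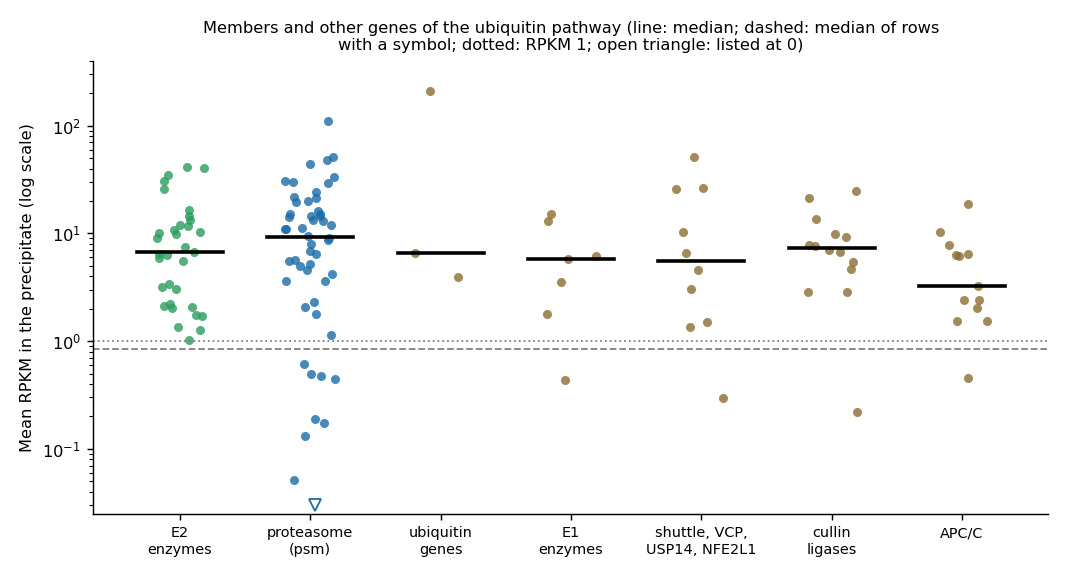
Mean RPKM (log axis) of the E2 enzymes, of all rows with a psm name and of other genes of the ubiquitin pathway, with the median of each list as a line. The medians are 6.72 RPKM for E2 enzymes, 9.35 RPKM for psm rows, 6.54 RPKM for ubiquitin genes, 5.76 RPKM for E1 enzymes, 5.59 RPKM for shuttle and associated factors, 7.32 RPKM for cullin ligases and 3.24 RPKM for APC/C genes.

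Overlap with other genes could be looked up for part of the members. Of 80 symbols 71 matched a single RefSeq gene of the GRCz12tu assembly, which is not the Zv9 build named by the submitters. In that annotation 17 of the 71 overlap another gene, among them psmb1 with nrxn1b, psme3 with skap1 and ube2b with ddx46, and in none is the overlapping gene a small RNA gene. How strand was used in counting is not given in the sources used here, so the part of an overlapping gene in these 17 values was not tested.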

How the data were processed

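Per the labels' protocols, anti-FLAG precipitates of 2 samples of 1 group were sequenced. The authors deposited a table without a header that holds RPKM values averaged over the replicates, as its name says. Tools listed in the submitters' processing notes, without their roles, are TopHat2 2.1.1, Bowtie, cutadapt 1.13 and Trimmomatic 0.36, FastQC, bedtools 2.16.2 and MACS2 2.0.10, with the Zv9 build; the annotation, gene lengths, strand use and multi-mapping were not given in the sources used here. Symbols came from a gene name table (21939 of 33737 identifiers, 65.0%).

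Members, classes and lists were chosen with earlier results of these data known. Medians cover every member, also those under RPKM 1. Named were the 4 highest and 2 lowest of each class, those at 0, and the subunits and E2 types of a written list; the remaining E2 genes were added after their values were seen. Some genes that this rule names, 2 E2 rows among them, are not reported by name here, though class counts and medians include them. Depth was searched in values of 0.4 to 2 RPKM shared by at least 3 rows: 2 steps accounted for 135 of 171 rows (78.9%), with a length tolerance of 0.002. In a simulated pair of libraries, further apart in depth than those fitted here and built on the same model, the search erred by at most 1.19e-05%. That value does not measure the error of the depths fitted here. Counting intervals are 95% intervals by a normal approximation to the Poisson error on the log scale. The approximation is rough at low counts, such as those of PSMB8 and PSMB9. Python 3.11.15, numpy 2.4.6 and pandas 2.3.3 were used.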

Additional observations from a re-analysis of the deposited data

How the results depend on the processing

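With a threshold of RPKM 0.1 or 5 in place of 1, 83 or 55 members were detected against 76, and 72 of 80 with 1 row per symbol. The share of all rows at RPKM 0.1 or 5 was not counted. The lower and upper quartiles of the rows with a symbol were 0.202 and 2.90 RPKM. Most of these rows thus also pass RPKM 0.1, and most do not pass RPKM 5. Of 58 values recomputed under alternatives, 41 stayed within the 95% counting interval of a 1 kb model (within 1.5 times for counts). Several of the 41 could not change. Leaving out rows at 0 alters nothing in a class without such a row, and the RPKM 1 filter alters nothing where every row passes. The interval is that of 1 gene model and not of a class median, so the 41 are no measure of robustness. Restricting to rows at RPKM 1 or more gave medians of 14.6 RPKM for the core particle and 12.6 RPKM for the activators, a core over E2 ratio of 2.17 and, turned round, a core over regulatory ratio of 1.11. Leaving out the inducible or alternative beta subunits, chosen after seeing the data, gave a core median of 13.3 RPKM, a core over E2 ratio of 1.98 and a core over regulatory ratio of 1.02, again turned round. Geometric means gave 5.92 RPKM (pseudocount 1) and 4.23 RPKM (pseudocount 0.1) for the core particle, 3.49 RPKM (pseudocount 0.1) for the activators, core over E2 ratios of 0.851 and 0.650, both turned round, and a core over regulatory ratio of 0.367 (pseudocount 0.1). The activator median, 5.63 RPKM in the main setting, rests on 6 rows. It was 9.16 RPKM without the row at 0 or with 1 row per symbol. Without PSME1 or, chosen after seeing the data, without PSME3IP1, it was 2.09 RPKM. The core values differ because its 7 rows under RPKM 1 are weighed differently by construction. No paired analysis was possible because both samples form a single group. Leaving out a replicate was not run, since the table gives their average. Depth limits values under RPKM 1, which stand for under about 13.1 reads on each kilobase.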
